A study of Mus musculus with 18 samples.

Results

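The Zfp genes analysed here are the mouse zinc finger genes whose symbol is Zfp followed by a number and nothing else. The count table held 278 of them among 11243 genes. Zfp36, which encodes an mRNA decay factor with another kind of zinc finger, was left out by the rule. All libraries were made from 1 transformed line of mouse macrophages, RAW264.7, which was derived from a virus-induced tumour. Control cells received the vehicle, which was DMSO. LPS cells received 500 ng/mL lipopolysaccharide from Salmonella minnesota for 6 h. A further group received the same LPS in combination with 100 nM torin1, which blocks the kinase mTOR, after 15 min of pretreatment with torin1. In each of 3 independent experiments, total mRNA and polysome-associated mRNA were sequenced from each treatment, which gave 18 libraries and 3 libraries in each of 6 groups.

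Most Zfp genes encode transcription factors built from repeats of the C2H2 zinc finger, a short fold in which a pair of cysteines and a pair of histidines hold a zinc ion and successive fingers read successive bases of DNA. Many of them also carry a KRAB box near the amino terminus, which recruits the co-repressor Trim28 and, through it, histone methylation that silences transposable elements. KRAB zinc finger genes arose by tandem duplication and lie in clusters, whereas the members without a KRAB box are a mixed group of activators, repressors and RNA-binding proteins. Polysomes are mRNAs that carry several ribosomes, so the level of an mRNA in polysomes relative to its level in total mRNA is a measure of how much of it is being translated. The polysome pool sequenced here was heavy polysomes, set by a threshold on the number of ribosomes. The paper cautions that shifts which do not cross this threshold may go undetected.

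Sequencing depth was 27800983 to 47725557 assigned counts per library. The table held rows for 8 of 8 macrophage markers and for 0 of the 3 markers listed for each of T cells, B cells, fibroblasts and epithelial cells. It holds protein-coding genes that were counted at least once in every library, so a gene fully silent in any library is not in it. Levels are given as CPM, which are counts scaled by TMM to a common library size. Il1b, a cytokine gene induced by LPS, was at 2.03 ± 1.42 CPM (SD, n = 3) in control total mRNA and at 1926 ± 915 CPM after LPS. All values are relative to the other mRNAs of a library, and a change in the number of cells that use a gene cannot be told apart from a change in mRNA per cell.

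A gene model in GENCODE M21 (GRCm38) was found for 276 of the 278 Zfp genes. Translation of the longest coding sequence among the basic transcripts of each gene gave 159 members with a KRAB box, 103 with at least 2 C2H2 fingers and no KRAB box, and 14 with 0 or 1 finger by the pattern used and no KRAB box. The median number of fingers was 11 and the highest was 37. Members were most numerous on chromosome 7, which held 76, followed by chromosome 17 with 33 and chromosome 13 with 28. Zfp mRNAs were scarce: the median member was at 10.5 CPM in control total mRNA, and the median over all genes was 32.1 CPM. Per kilobase of exon the medians were 2.37 and 7.09 CPM. Their transcripts were also poorer in G and C than most, with a median GC content of 45.8% against 50.4% over all genes. This low GC belonged to the KRAB members, whose median was 42.5%, whereas the members without KRAB had a median of 51.7%.

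The contrast in base composition is easiest to see in the fold that most of these proteins share. The sequences below, from the GENCODE M21 transcripts, code for a single C2H2 finger and the linker after it in the members with the lowest polysome loading, Zfp933 and Zfp712, and in those with the highest, Zfp574 and Zfp358. Each is the first finger of its protein that has the classical spacing between its zinc-binding residues and runs into a canonical linker. Capitals mark the codons of the 2 cysteines and the 2 histidines.
Zfp933: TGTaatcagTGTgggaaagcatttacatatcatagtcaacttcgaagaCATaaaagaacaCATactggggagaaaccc
Zfp712: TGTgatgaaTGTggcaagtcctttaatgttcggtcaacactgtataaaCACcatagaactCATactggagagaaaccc
Zfp574: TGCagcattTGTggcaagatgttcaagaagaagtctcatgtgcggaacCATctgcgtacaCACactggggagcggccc
Zfp358: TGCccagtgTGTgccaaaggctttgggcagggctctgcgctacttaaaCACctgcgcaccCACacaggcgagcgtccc

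These stretches are exonic and coding, at chr4:147826664-147826741 on the minus strand for Zfp933, chr13:67042054-67042131 on the minus strand for Zfp712, chr7:25081052-25081129 on the plus strand for Zfp574 and chr8:3496221-3496298 on the plus strand for Zfp358 (GRCm38). The genes were chosen by their loading. Of the 26 codons shown, 5 ended in G or C in Zfp933 and 8 in Zfp712, against 18 in Zfp574 and 16 in Zfp358. Over the whole coding sequence, the last base of the codon was G or C in 27.1% of Zfp933 codons, 34% of Zfp712 codons, 66.4% of Zfp574 codons and 55.0% of Zfp358 codons. Across members the median was 42.3% for the KRAB members and 60.6% for those without KRAB.

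Polysome loading was first compared in control cells, as the difference between polysome-associated and total mRNA on the log2 scale. Zfp mRNAs were mostly under-represented in polysomes. Of the 278 members, 163 (58.6%) were lower in polysomes than in total mRNA and 55 (19.8%) were higher at an FDR of 0.25 in edgeR's quasi-likelihood test. Over all genes, 33.2% were called lower and 36.3% higher, or 69.6% in either direction. At an FDR of 0.05, 44.2% of the members were lower and 12.2% (34 members) higher, against 23% and 26.1% of all genes and 49.1% in either direction. The median member was 0.47 log2 units lower in polysomes, with medians of -0.64, -0.28 and -0.43 in experiments 1, 2 and 3. For the other genes the median was 0.04, and for 2637 other genes in the members' middle range of expression (between the members' quartiles of mean log2 CPM) it was 0.17.

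Most of the members called lower were KRAB genes. Of 159 KRAB members, 122 were lower in polysomes and 10 were higher, with a median of -0.69. For 338 other genes in the middle range of both GC and expression of the KRAB members, the median was -0.39. The median transcript GC of this set was 44.1%, above the 42.5% of the KRAB members, so the match in GC was incomplete. The 103 C2H2 members without KRAB were split, with 39 higher, 35 lower and a median of 0.02. Of the 14 members with 0 or 1 finger, 6 were higher and 4 lower. The 42 KRAB genes of the table that have other names gave 36 lower and 2 higher, with a median of -0.89. Among other zinc finger families, 12 of 36 Zbtb genes, which join C2H2 fingers to a BTB domain, were higher and 16 were lower. Over all genes, 36.3% were higher and 33.2% lower, so the share of Zbtb genes called higher was close to that of all genes.

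**Figure D1:**
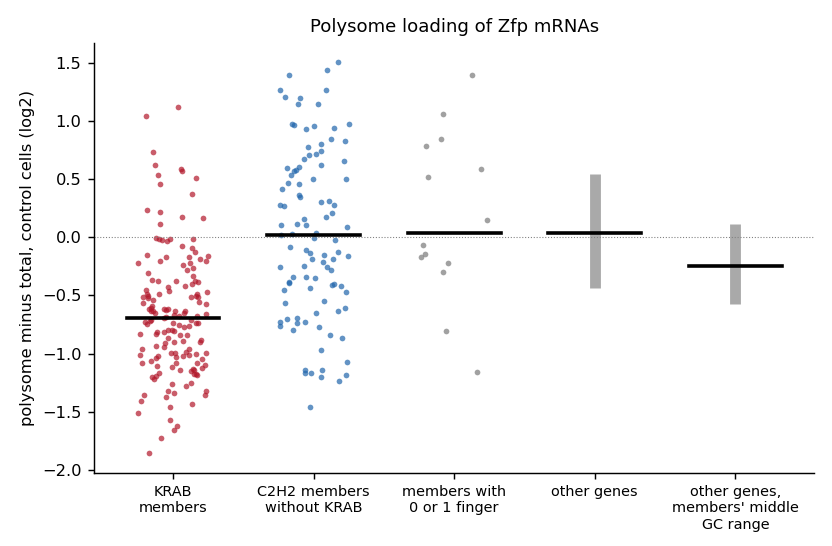
Log2 difference between polysome-associated and total mRNA in control cells for each Zfp gene (points) by protein class, with medians as black lines. Grey bars give the quartiles of all other genes and of other genes in the members' middle range of transcript GC. The KRAB members had a median of -0.69 and the C2H2 members without KRAB a median of 0.02.

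The lowest loading was seen in Zfp933, a KRAB gene at chr4:147822986-147848366. It was at 15.5, 13.5 and 17.1 CPM in the total mRNA of control cells in experiments 1, 2 and 3 and at 3.34, 4.78 and 4.59 CPM in polysomes. No polysome value overlapped a total value, and the log2 difference was -1.86 ± 0.26 (SE, edgeR adjusted p = 0.00011). Zfp942, a KRAB gene at chr17:21926960-21962464, fell from 14.8, 13.7 and 15.8 CPM in total mRNA to 3.80, 4.73 and 5.49 CPM in polysomes, a log2 difference of -1.66 ± 0.16. Zfp81 had a log2 difference of -1.51 ± 0.21, with 17.7, 18 and 21.3 CPM in total mRNA against 6.23, 7.68 and 6.1 CPM in polysomes. Zfp712, Zfp808 and Zfp677 completed the 6 lowest named by rule, at -1.73, -1.62 and -1.57, and all 6 were KRAB genes.

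None of the 6 highest scored as a KRAB gene, although Zfp213 came close, with 13 of the 15 identities to the KRAB consensus required. Zfp574, with 18 fingers and at chr7:25072567-25083492, was at 12.9, 8.39 and 12 CPM in total mRNA and at 39.3, 23.9 and 31.4 CPM in polysomes. Every polysome value lay above every total value, and the log2 difference was 1.51 ± 0.30 (edgeR adjusted p = 0.00096). Zfp598, an E3 ubiquitin ligase that marks collided ribosomes, was at 39.2, 29.4 and 35.9 CPM in total mRNA and at 117.3, 68.8 and 89.3 CPM in polysomes, a log2 difference of 1.40 ± 0.25. Zfp358, Zfp628, Zfp213 and Zfp775 had log2 differences of 1.44, 1.39, 1.27 and 1.27. In Zfp628 the spread was wide, with 24, 11.8 and 15.3 CPM in polysomes and a standard error of 0.43.

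Loading rose with the GC content of the transcript. Across 276 members, Spearman's rho between the loading difference and transcript GC was 0.82, and across the other genes it was 0.66. Genes are not independent replicates and share the libraries, so these are descriptions. Of the 92 members with the lowest GC, 86 were lower in polysomes and 0 were higher, with a median close to -1. Of the 92 with the highest GC, 52 were higher and 15 lower, with a median of 0.44. Among the members, rho was -0.34 with the number of ATTTA words in the 3′ UTR, -0.32 with the number of fingers, -0.18 with 3′ UTR length, 0.20 with 5′ leader length and -0.10 with coding length. Across the other genes it was -0.37 with ATTTA words and -0.07 with the number of fingers. The other genes had a median of 0 fingers, so many were tied and the rho values for fingers cannot be compared.

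In every step of 4 percentage points of GC except 56 to 60%, the members had a lower median than other genes of the same GC. Between 36 and 40% GC, 53 members had a median loading of -1.02 and 386 other genes a median of -0.67. Between 40 and 44% the medians were -0.71 and -0.51, between 44 and 48% they were -0.55 and -0.31, and between 48 and 52% they were -0.24 and -0.05. Between 52 and 56% they were 0.23 and 0.36. Between 56 and 60% the order was the other way, with medians of 0.73 for 29 members and 0.65 for other genes, and between 60 and 64% the 8 members were again lower, at 0.77 against 0.89. The end steps held 3 members from 32 to 36%, at -1.06 against -0.84, and 2 from 64 to 68%, at 0.80 against 1.15. Between 36 and 40% GC the classes had like values: 45 KRAB members had a median of -1.02 and 8 members without KRAB one of -1.05. The classes kept no single order above that. Between 40 and 44% the medians were -0.71 with KRAB and -0.77 without, between 44 and 48% they were -0.63 and -0.43, between 48 and 52% they were -0.28 and 0.06, and between 52 and 56% they were 0.45 and 0.23. The differences between these sets of genes were not tested.

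**Figure D2:**
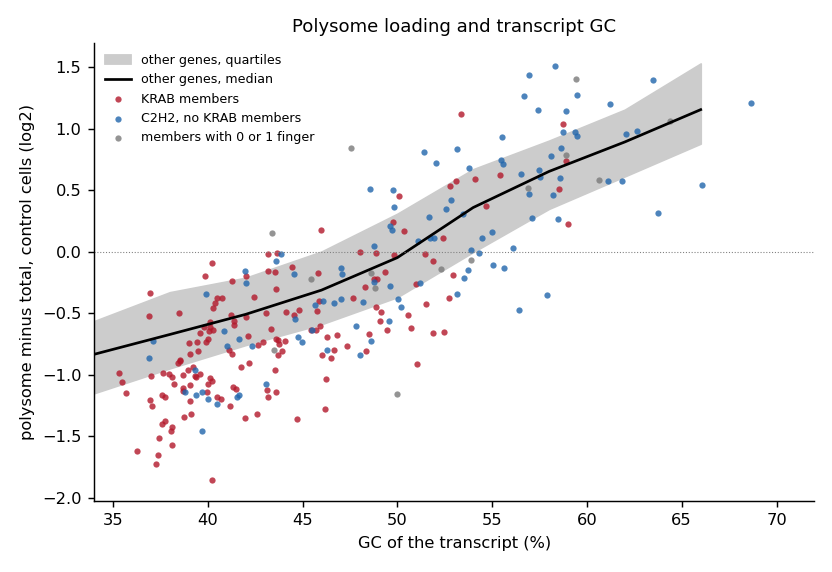
Log2 difference between polysome-associated and total mRNA in control cells (vertical axis) against transcript GC content in percent (horizontal axis). Points are Zfp genes coloured by protein class, the line and band are the median and quartiles of other genes in steps of 4 percentage points, and the 53 members between 36 and 40% GC had a median of -1.02 against -0.67 for other genes.

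The composition of the libraries moved with the RNA source. The count-weighted mean transcript GC was 48.9% in all 3 control total libraries and 51.0, 50.1 and 50.4% in the control polysome libraries of experiments 1, 2 and 3. Experiment 1, with the largest gap, also had the lowest median loading of the members. When a smooth curve over GC was removed from every library, 114 members were lower and 44 higher of 276, against 25.6 and 28.5% of all genes. The median loading of the members was -0.19 and that of all genes 0.01. The KRAB median was then -0.26 and that of the members without KRAB -0.11. Of the 218 members called without the correction, 126 were called in the same direction with it.

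Loading was also read along the chromosomes. With gaps of at most 1 Mb, members formed 14 neighbourhoods of 5 or more, whose median loading ran from -1.13 to 0.50. In the chromosome 13 neighbourhood from Zfp712 to Zfp273 (67038596 to 67827002), all 18 members had a KRAB box, 17 were lower in polysomes, 0 were higher and the median was -1.09. In the chromosome 17 neighbourhood from Zfp160 to Zfp213, 16 of 18 were lower, with a median of -1.07. The single member called higher there was Zfp213, at its edge and without a KRAB box by the score used. The chromosome 7 neighbourhood from Zfp628 to Zfp580 held 6 members, none with a KRAB box, of which 5 were higher and 0 lower, with a median of 0.50. Neighbours are paralogs, and reads that match several of them equally may be missing from the counts.

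**Figure D3:**
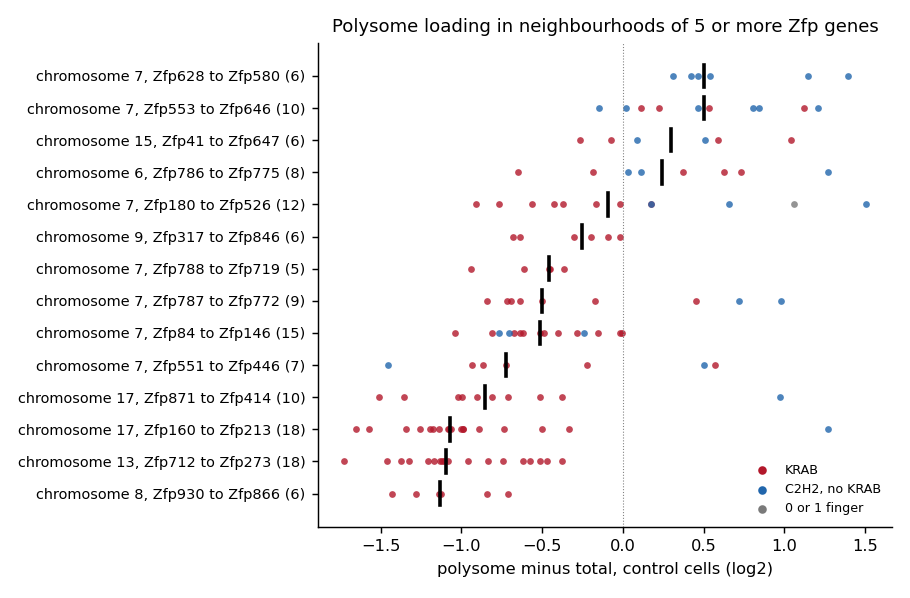
Log2 difference between polysome-associated and total mRNA in control cells for the members of 14 genomic neighbourhoods, ordered by their median (black line), with the number of members in brackets. Points are genes coloured by protein class, and the medians run from -1.13 on chromosome 8 to 0.50 on chromosome 7.

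The effect of LPS was then read in total mRNA. More Zfp genes fell than rose: 140 of 278 (50.4%) were lower and 44 (15.8%) higher after LPS at an FDR of 0.25, against 34.3% lower and 32.2% higher over all genes (66.5% in either direction). At an FDR of 0.05, 36.3% of the members were lower and 9.35% (26 members) higher, against 24% and 21.7% of all genes and 45.6% in either direction. The median member fell by 0.28 log2 units, and the medians in experiments 1, 2 and 3 were -0.27, -0.32 and -0.27. This was close to other genes of like expression, of which 49.9% were lower and 20.3% higher, with a median of -0.27. The classes differed in their medians. Of the KRAB members, 94 fell and 17 rose, with a median of -0.50, and 1521 other genes in the middle expression range of the KRAB members had a median of -0.31. Of the C2H2 members without KRAB, 40 fell and 23 rose, with a median of -0.09, and the 4182 other genes of their expression range had a median of -0.15. By experiment the KRAB medians were -0.32, -0.54 and -0.46. Those of other genes of the members' expression range were -0.31, -0.23 and -0.29, so in experiment 1 the KRAB median was close to theirs.

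In polysome-associated mRNA more members also fell than rose. After LPS, 40.6% of the members were lower and 12.2% (34 members) higher in polysomes, against 28.7 and 26.4% over all genes. The lower members were 72 with KRAB, 34 C2H2 members without KRAB, 6 with 0 or 1 finger and 1 without a gene model. The median was -0.33, and over other genes of the members' expression range it was -0.28. The experiments were less uniform than in total mRNA, with medians of -0.10, -0.41 and -0.31, and those of the KRAB members were -0.00, -0.66 and -0.37. The count-weighted GC of the polysome libraries moved with this: from control to LPS it went from 51.0 to 49.8% in experiment 1, from 50.1 to 50.4% in experiment 2 and from 50.4 to 49.6% in experiment 3. After the GC curve was removed, the KRAB medians were -0.40, -0.57 and -0.45, and 141 members were lower and 42 higher, against 34.3 and 28.3% of all genes. At an FDR of 0.05 without the correction, 19.1% of the members (53) were lower and 4.32% (12) higher, against 16.6 and 15.9% of all genes, or 32.5% in either direction. The calls also depended on the number of experiments, since 82 members were lower and 13 higher without experiment 1, 68 and 17 without experiment 3, and 97 and 48 without experiment 2. Over all genes, 18 and 16.7%, 19.4 and 18.2%, and 33.9 and 30.6% were then lower and higher, so without experiment 2 the share of members called lower was close to that of all genes.

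The 2 members with the largest falls had no KRAB box. Zfp362, at chr4:128773088-128806045, was at 7.33, 6.66 and 9.26 CPM in the total mRNA of control cells and at 0.677, 1.38 and 1.21 CPM after LPS. In polysomes it went from 13.4, 9.87 and 12 CPM to 1.46, 2.22 and 1.71 CPM. The groups did not overlap in either RNA, and the log2 differences were -2.82 ± 0.26 and -2.70 ± 0.31 (edgeR adjusted p = 1.9e-05 and 0.00011). Zfp651 fell from 9.68, 7.64 and 10.7 CPM to 0.997, 1.68 and 1.64 CPM in total mRNA and from 20.2, 12.4 and 15.4 CPM to 1.24, 1.56 and 1.31 CPM in polysomes. Its log2 differences were -2.68 ± 0.25 and -3.54 ± 0.31. E530011L22Rik overlaps Zfp651 on the other strand, and the strand setting of the counting is not given in the sources used here.

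Zfp41 fell from 12.1, 14.6 and 14.9 CPM to 4.59, 3.79 and 3.93 CPM in total mRNA, a log2 difference of -1.76 ± 0.15, and by 1.75 in polysomes. Among the KRAB members, Zfp951 fell by 1.93 and Zfp398 by 1.67 in total mRNA, and Zfp69 by 1.72 in polysomes. Zfp219 fell by 1.98 in polysomes, from 23.5, 10.9 and 20 CPM to 3.32, 7.03 and 3.42 CPM, so experiment 2 changed least. Arhgef40, Tmem253 and a predicted gene overlap Zfp219 on the other strand.

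Fewer members rose, and the rises were smaller. Zfp703, an atypical member that acts as a transcriptional co-repressor and has no classical finger array, was at 2.56, 2.09 and 2.90 CPM in control total mRNA and at 4.52, 7.88 and 6.68 CPM after LPS, a log2 difference of 1.34 ± 0.23. In polysomes it was at 5.34, 2.22 and 3.74 CPM and then at 6.12, 10.3 and 5.07 CPM, so that the groups overlapped, with a difference of 0.93 ± 0.39 that was 0.29 and no longer called without experiment 2. Zfp719 rose from 19.1, 18.3 and 14.7 CPM to 53.6, 32 and 32.5 CPM in total mRNA and from 12.9, 15.8 and 11.7 CPM to 44.2, 25.5 and 29 CPM in polysomes, with log2 differences of 1.18 ± 0.20 and 1.28 ± 0.22. Its neighbour Zfp658 rose by 0.69 ± 0.18 in total mRNA, and 3 of the 5 members of that neighbourhood rose while 2 fell.

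Zfp420 had the highest fitted rise, 1.66 ± 0.42 in total mRNA, but its LPS values of 25.9, 11.6 and 6.19 CPM were far apart, against 5.14, 5.00 and 3.69 CPM in control cells. Zfp513 rose by 1.16 ± 0.15 in total mRNA, and Snx17 overlaps it on the other strand. Zfp281, a transcription factor of pluripotent and other cells, rose from 43, 44.7 and 44.3 CPM to 85.8, 71.2 and 74.3 CPM in total mRNA and by 0.92 ± 0.17 in polysomes. Zfp428, at about 1 CPM, rose by 0.94 ± 0.34 in total mRNA and had a difference of 0.23 ± 0.50 in polysomes, which did not pass the test.

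Torin1 was assessed by comparing LPS with torin1 against LPS alone. The comparisons of LPS with control and of torin1 with LPS share the LPS libraries, so opposite signs in the pair are not independent of each other. With torin1, 116 members (41.7%) were higher and 23 (8.27%) lower in total mRNA, against 27.3 and 26.4% over all genes (53.7% in either direction). The median was 0.23, with medians of 0.17, 0.30 and 0.29 by experiment. Other genes of the members' expression range had a median of 0.12, with 35.7% higher and 18.4% lower. KRAB members gave 72 higher and 7 lower with a median of 0.31, against 0.17 for other genes of their expression range. C2H2 members without KRAB gave 40 higher and 11 lower with a median of 0.14. By experiment the medians were 0.10, 0.45 and 0.42 with KRAB and 0.22, 0.20 and 0.12 without. Those of other genes of the members' expression range were 0.18, 0.09 and 0.12, so the KRAB median was the lowest of these in experiment 1. The number lower was 18 without experiment 1, 25 without experiment 2 and 13 without experiment 3, against 21.8, 23.2 and 16.8% of all genes.

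In polysomes, 99 members (35.6%) were higher and 12 (4.32%) lower with torin1, against 20.3 and 18.2% over all genes (38.4% in either direction). The median was 0.26, and 0.08 for other genes of the members' expression range. By experiment the medians were 0.17, 0.30 and 0.31. The KRAB members had 67 higher and 3 lower with a median of 0.38, against 0.11 for other genes of their expression range, and the C2H2 members without KRAB had 28 higher and 6 lower with a median of 0.16. The 42 other KRAB genes had 21 higher and 0 lower. At an FDR of 0.05, 34 members were higher and 0 lower in polysomes, against 8.1 and 5.75% of all genes. The number called fell to 40 higher and 1 lower without experiment 1, against 9.27 and 6.58% of all genes, and was 91 higher and 22 lower without experiment 2, against 22.7 and 23.4%. Without experiment 3 it fell to 18 higher and 2 lower against 6.31 and 4.25% of all genes, so the share of members higher was then close to that of all genes, while the median was 0.26. After removal of the GC curve, 110 were higher and 30 lower, against 24.1 and 26.2% of all genes, with a median of 0.19.

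**Figure D4:**
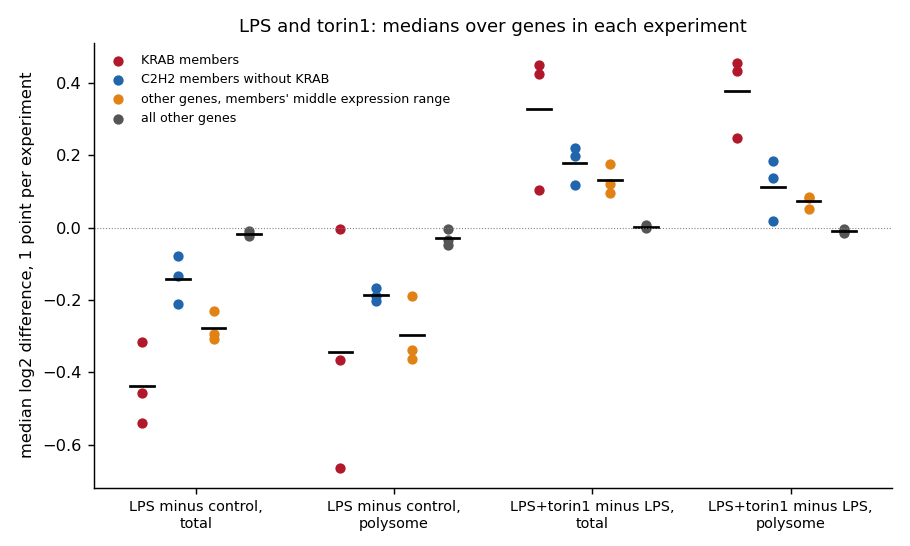
Median log2 difference over the genes of each set in each of 3 experiments (points), with the mean of the 3 as a black line, for LPS against control and LPS with torin1 against LPS in total and polysome-associated mRNA. After LPS the KRAB medians were -0.32, -0.54 and -0.46 in total mRNA and -0.00, -0.66 and -0.37 in polysomes.

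As a share of all assigned counts, the members made up 0.747 to 0.802% of control total libraries, 0.544 to 0.632% after LPS and 0.609 to 0.685% after LPS with torin1. In polysomes the shares were 0.623 to 0.658%, 0.470 to 0.491% and 0.518 to 0.551%. Unlike CPM, these shares are not scaled by TMM. The TMM factors were 1.13 to 1.18 in control libraries, 0.875 to 0.927 with LPS and 0.927 to 0.976 with torin1. A higher factor means a larger raw share for a typical gene, so the raw share of a typical gene also fell after LPS. The member shares of the 3 treatments did not overlap in polysomes. In total mRNA the control libraries lay above all others, and the libraries with torin1 overlapped those with LPS alone, although within each experiment the share was higher with torin1, at 0.685 against 0.632%, 0.609 against 0.544% and 0.648 against 0.594%.

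Zfp362 was named for torin1 as well as for LPS. With torin1 it was at 4.42, 3.74 and 3.42 CPM in total mRNA and 3.98, 8.02 and 4.75 CPM in polysomes, above all LPS values and below all control values of the same RNA. The log2 differences from LPS alone were 1.81 ± 0.27 and 1.66 ± 0.30. Zfp658, a KRAB gene with 21 fingers, went further in the direction of LPS. It was at 6.39, 7.23 and 4.72 CPM in control total mRNA, 11.4, 8.54 and 9.77 CPM after LPS and 25.5, 30.1 and 30.4 CPM with torin1, a log2 difference from LPS of 1.54 ± 0.17, and it rose by 1.61 ± 0.22 in polysomes.

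Zfp951 was higher with torin1 by 1.38 ± 0.29 in total mRNA and 1.55 ± 0.41 in polysomes, at 1.85, 1.35 and 2.62 CPM against 0.926, 0.631 and 0.680 CPM in total mRNA. Zfp174 had the largest fitted rise in total mRNA, 2.17 ± 0.33, from 0.499, 0.301 and 0.588 CPM to 2.31, 1.75 and 2.20 CPM, and Zfp597 overlaps it on the other strand. Zfp358 rose by 1.36 ± 0.27 in total mRNA, and Zfp30 and Zfp551 by 1.41 and 1.26 in polysomes. The polysome calls of Zfp951, Zfp30 and Zfp551 were lost without experiment 3, with log2 differences of 1.32, 1.33 and 1.13, and that of Zfp30 also without experiment 1 (edgeR adjusted p = 0.265).

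Among members that fell with torin1, Zfp296 went from 2.31, 4.48 and 3.80 CPM to 1.71, 2.32 and 1.75 CPM in total mRNA and from 3.42, 6.68 and 5.07 CPM to 1.67, 4.32 and 1.12 CPM in polysomes, with log2 differences of -0.88 ± 0.29 and -1.07 ± 0.47. The values overlapped between groups in both RNAs, and Gemin7 overlaps the gene on the other strand. Zfp706 fell from 64.2, 51.4 and 65.9 CPM to 42.9, 38.4 and 38.7 CPM in total mRNA, a log2 difference of -0.60 ± 0.11, without overlap. Zfp948 and Zfp420, both higher after LPS, fell by 0.66 and 1.48 in total mRNA, and Zfp651 by 0.66. In polysomes Zfp651, Zfp827, Zfp593 and Zfp608 fell by 0.99, 0.69, 0.69 and 0.66. Several of these calls were lost when 1 experiment was left out. In total mRNA Zfp296 was at -0.76 without experiment 3, Zfp948 at -0.43 without experiment 1 and Zfp651 at -0.45 without experiment 2, none of them called. In polysomes the calls of Zfp296, Zfp827, Zfp593 and Zfp608 were lost without experiment 1, at -1.08, -0.69, -0.76 and -0.72, and without experiment 3, at -0.71, -0.55, -0.63 and -0.49.

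**Figure D5:**
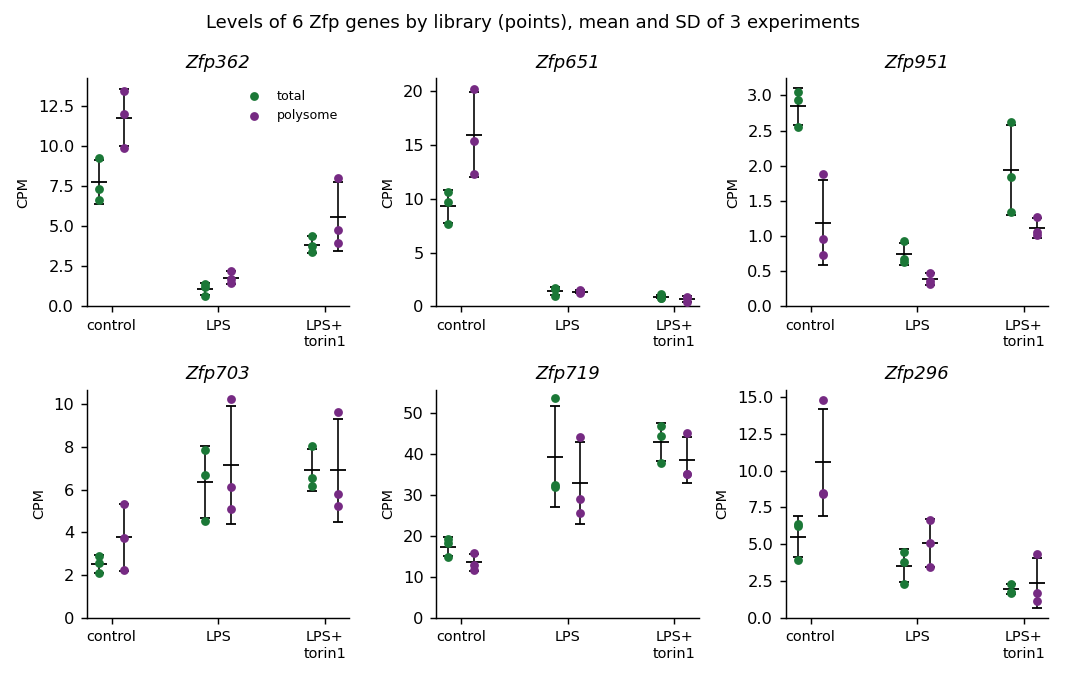
Levels of 6 Zfp genes in CPM (vertical axes, from 0) in total (green) and polysome-associated (purple) mRNA of control, LPS and LPS with torin1 cells, with 1 point per experiment and the mean ± SD of 3. Zfp362 fell after LPS and was higher again with torin1, whereas Zfp651 fell after LPS and was lower still with torin1.

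Changes in translation efficiency, the change in polysomes beyond that in total mRNA, were tested as an interaction across all 18 libraries. No member was called for LPS or for torin1, and none of all 11243 genes was called either (0%). With a block for each treatment within each experiment, which pairs its total and polysome libraries, 25 genes were called for torin1 and 0 for LPS. All 25 were lower, and none of them was a member. With the GC curve removed as well, 31 genes were lower and 1 higher for torin1, again with 0 members. At an unadjusted p under 0.05 in edgeR, 3 members were called for LPS, all lower, and 0 for torin1. Over all genes, 44 and 110 had such a p, fewer than a threshold of 0.05 would pass without any change. The interaction test did not pair the libraries of an experiment, and its lack of calls cannot exclude changes. With its own method, anota2seq, the paper reported a subset of mRNAs with altered translation efficiency after LPS, largely reversed by torin1. The medians over the members were 0.00 for LPS and 0.02 for torin1. DESeq2 called 1 gene for LPS and 13 for torin1, none of them a member, but for torin1 it gave no adjusted p to 270 of the 278 members. An analysis of partial variance regresses polysome on total levels. At an unadjusted p under 0.05 it had 26 of 278 members and 715 of 11243 genes for LPS. For torin1 it had 28 of 278 members and 698 of 11243 genes. Its member medians were -0.08 and 0.10, against -0.01 and -0.02 over all genes, a difference that was not tested. It called 11 genes for LPS, 1 of them a member, and 22 for torin1, with 0 members.

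The member with the lowest p for LPS was Zfp503, an atypical co-repressor related to Zfp703. It was at 0.761, 0.523 and 0.469 CPM in control and 0.356, 0.782 and 0.278 CPM in LPS total mRNA, and at 1.14, 0.793 and 1.08 CPM in control and 0.195, 0.403 and 0.210 CPM in LPS polysomes. The polysome values fell without overlap and the total values overlapped, and the interaction was -1.57 ± 0.55 with an edgeR adjusted p of 1.00. The analysis of partial variance called Zfp503 lower for LPS with an estimate of -1.65 and a limma adjusted p of 0.108. Its lowest library held 6 counts. Zfp651 and Zfp526 had interactions of -0.85 ± 0.38 and -0.43 ± 0.20. The 3 higher members with the lowest p were Zfp626, Zfp459 and Zfp277, at 0.49, 0.68 and 0.30. For torin1, Zfp738, Zfp97 and Zfp383 were at 0.46, 0.70 and 0.38, and Zfp579, Zfp954 and Zfp873 at -0.91, -0.39 and -0.70. None of these passed the FDR in the interaction test.

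The most abundant members in control total mRNA were Zfp106, an RNA-binding protein needed in motor neurons and muscle, at 513 ± 43 CPM (SD, n = 3), and Zfp207, a spindle and kinetochore protein, at 312 ± 11 CPM. They were followed by Zfp91, Zfp638 and Zfp710. Zfp710 had the largest treatment difference of the 5, at -0.64 ± 0.28 for LPS in polysomes. Zfp106 was at 470, 557 and 512 CPM in control cells, 524, 494 and 529 CPM after LPS and 401, 408 and 417 CPM with torin1, and fell by 0.34 ± 0.10 with torin1. Zfp91, an E3 ubiquitin ligase, fell by 0.39 ± 0.11 with torin1, from 328, 304 and 271 CPM to 241, 237 and 210 CPM.

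Of 9 members listed for roles in RNA or ribosome biology, 2 were higher and 4 lower in polysomes of control cells. Over all genes, 36.3% were higher and 33.2% lower. The higher ones were Zfp598 and Zfp593, the latter a factor of large ribosomal subunit assembly, with loading differences of 1.40 and 0.52. Zfp622, another factor of large subunit maturation, had a loading difference of -0.25, and Zfp326, which couples transcription elongation to splicing, one of -0.80. Zfp207 and Zfp638 were also lower, by 0.61 and 0.77. After LPS, 3 of the 9 rose and 1 fell in total mRNA, against 32.2 and 34.3% of all genes. The share that rose was thus close to that of all genes. Zfp622, Zfp830 and Zfp207 rose by 0.28, 0.27 and 0.32, and Zfp326 fell by 0.32. With torin1, Zfp326 rose by 0.82 ± 0.15 in total mRNA and 0.75 ± 0.20 in polysomes.

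Of 21 transcription and chromatin members without a KRAB box, 4 were higher and 12 lower in control polysomes, with a median of -0.40. Over all genes, 36.3% were higher and 33.2% lower. The median transcript GC of the list was 48.2%, against 50.4% over all genes, and no set matched for GC was read beside it. Zfp292, Zfp644, Zfp131 and Zfp281 were lowest, at -1.24, -1.18, -1.14 and -1.08, and Zfp335, which is part of a histone methyltransferase complex, was higher at 0.97. In total mRNA 6 of the 21 (28.6%) rose and 4 (19%) fell after LPS, against 32.2 and 34.3% of all genes. Zfp407 rose by 0.51 ± 0.09, Zfp384 by 0.40 ± 0.11 and Zfp148 fell by 0.43 ± 0.10. Zfp143, which activates small nuclear RNA and many other promoters, had a difference of 0.18 ± 0.13 that did not pass the test.

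The table held 4 of 7 Zfp genes listed for roles at retroelements or imprinted genes. All 4 were lower in control polysomes, as were most KRAB members and 33.2% of all genes. Zfp809, which silences leukaemia proviruses, had a loading difference of -0.49, Zfp445, which maintains genomic imprints, one of -0.63, Zfp568, which represses a placental Igf2 promoter, one of -0.62 and Zfp932 one of -0.88. After LPS they went different ways. Zfp568 rose from 46.9 ± 3.8 CPM (SD, n = 3) to a mean of 82.3 CPM in total mRNA, a log2 difference of 0.81 ± 0.15, while Zfp809 and Zfp932 fell by 0.35 and 0.70 and Zfp445 had a difference of 0.02 ± 0.15.

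The 21 listed partners of KRAB repression are not members and were read beside them. In control polysomes 16 of them were lower and 2 higher, against 33.2 and 36.3% of all genes. In total mRNA 11 (52.4%) fell and 5 (23.8%) rose after LPS, against 34.3 and 32.2% of all genes, and with torin1 9 (42.9%) fell and 2 (9.52%) rose, against 26.4 and 27.3%. Trim28, the co-repressor that KRAB boxes bind, had means of 339 CPM in control, 213 CPM in LPS and 178 CPM in LPS with torin1 total mRNA, with log2 differences of -0.67 ± 0.12 for LPS and -0.25 ± 0.12 for torin1. Setdb1, the histone H3 methyltransferase that Trim28 recruits, fell by 0.46 ± 0.13 after LPS. Uhrf1 and Dnmt1, which copy DNA methylation after replication, fell by 1.91 and 1.40 after LPS.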

How the data were processed

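Ribosomal RNA-depleted stranded libraries of total and polysome-associated RNA were sequenced from both ends of each fragment. The authors aligned the reads with HISAT2 (GRCm38), used featureCounts with Ensembl genes, and deposited the raw counts of protein-coding genes that had no 0 in any library. Groups were taken per the labels. Counts of all 11243 genes were tested with edgeR 4.0.16 (TMM, quasi-likelihood F test, R 4.3.3), with total and polysome libraries fitted separately for treatments and together for loading and translation efficiency. P-values were adjusted by Benjamini-Hochberg over all genes, and calls used an FDR of 0.25, the threshold of the study's methods. Translation efficiency was an interaction, which also required a 1.2-fold difference. anota2seq was not run. The tests were tried on simulated data with known changes.

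Fingers and KRAB boxes were found in translated GENCODE M21 coding sequences, KRAB as at least 15 identities over 37 positions to a consensus of 120 windows from the members. Named for each treatment comparison are the 5 rising and 5 falling called members with the largest log2 difference, the same sign in every experiment and at least 10 counts in every library compared. For loading the number was 6 and 6, and for translation efficiency 3 and 3 by p. The 5 most abundant members and members of the function lists were named whatever their values, and Zfp658 also as a neighbour of Zfp719. The members and lists were chosen with earlier results of these data known. In total mRNA, libraries with the same experiment number deviated together (mean r = 0.43 over pairs, lowest 0.13), and in polysomes less evenly (mean 0.33, lowest -0.13). Alternatives were the replicate block, DESeq2 1.42.0, RLE scaling, a 10-count filter, an FDR of 0.05, leaving out each experiment, an analysis of partial variance (limma 3.58.1) and, chosen after seeing the data, a GC correction (a smooth curve over transcript GC removed from each library).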

Additional observations from a re-analysis of the deposited data

How the results depend on the processing

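At an FDR of 0.05 the members called were 34 higher for polysome loading, 26 higher for LPS in total mRNA, 12 higher and 53 lower for LPS in polysomes, 71 higher and 9 lower for torin1 in total mRNA, and 34 higher and 0 lower for torin1 in polysomes. Of all genes, 26.1% were then higher for loading, 21.7% higher for LPS in total mRNA, 15.9% higher and 16.6% lower for LPS in polysomes, 15.6% higher and 13.5% lower for torin1 in total mRNA, and 8.1% higher and 5.75% lower for torin1 in polysomes. Of the 64 calls and values of named members, 57 kept their side of the threshold and 7 lost it. The translation efficiency values among them were uncalled and could not lose a call. The others were named for being called with large differences, so their stability is partly built in. Leaving out 1 experiment gave 13 to 48 higher and 68 to 97 lower for LPS in polysomes, 13 to 25 lower for torin1 in total mRNA, and 18 to 91 higher and 1 to 22 lower for torin1 in polysomes. It also moved the median LPS change in translation efficiency to between -0.025 and 0.076. With the replicate block, torin1 lowered 19 members in polysomes, other counts stayed within 1.5 times and the 64 values of named members kept their call. For treatments and in the analysis of partial variance, this block is the experiment. In the edgeR fits of loading and translation efficiency it pairs the total and polysome libraries of 1 treatment in 1 experiment. The GC correction, chosen after seeing the data, took the median loading to -0.19 and gave 30 members lower with torin1 in polysomes. With the block added, 42 and 35 were lower with torin1 in total mRNA and in polysomes. Among members with at least 10 counts in every library, the median LPS change in total mRNA was -0.22. RLE scaling gave a median torin1 change in translation efficiency of 0.077. The analysis of partial variance called 1 member of 11 genes for LPS, and 1 of 20 with the block. It turned the sign of uncalled translation efficiency values for Zfp459 (-0.54, and -0.10 with the block) and Zfp626 (-0.98 with the block) after LPS, and of Zfp579 with torin1 (0.36). The causes were not tested. Members with few counts limit precision, since 20 of 278 had under 10 counts in some library.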
